A study of Sus scrofa with 220 samples.

Results

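GATA6, HNF4A, GATA4, FOXA2 and MIXL1 are transcription factors of the hypoblast and the endoderm, and they were followed from the morula to the spherical embryo of the pig. They were chosen as the rows of the raw count and TPM tables whose Ensembl pig identifier carries one of these symbols, which gave 5 genes of 22840 gene entries. Their identifiers are ENSSSCG00000003702 for GATA6, ENSSSCG00000007371 for HNF4A, ENSSSCG00000022383 for GATA4, ENSSSCG00000007114 for FOXA2 and ENSSSCG00000030675 for MIXL1. TPM is a transcript count scaled to the gene length and to a fixed total per cell, and it can be compared between genes within a cell.

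The study sequenced 220 single cells from 28 embryos at 4 stages by Smart-seq2, a method that covers polyadenylated transcripts over their whole length. Embryos were flushed from crossbred Large White and Landrace sows after artificial insemination, and no group was treated or genetically altered. The study inferred sex from Y chromosome genes, and the share of female cells differed between cell types. The comparisons here did not account for sex. Morulae (M) gave 47 cells, of which 46 came from 8 embryos and 1 had no known embryo. The identifier of that cell, AO23_e5, carries the letters of a late blastocyst embryo, AO. It is labelled morula and was kept in the shares of M, and its label was not tested. It had GATA6 at 529 TPM and the other factors at 0. Early blastocysts (EB) gave 24 inner cell mass (ICM) cells from 7 embryos and 28 trophectoderm (TE) cells from 10. From late blastocysts (LB) came 25 epiblast (EPI) cells of 4 embryos, with 36 hypoblast (HYPO) cells of 5. From spherical embryos (Sph) came 48 EPI cells of 4 embryos, with 12 HYPO cells of 3. Trophectoderm was removed by immunosurgery at the LB stage, and EPI and HYPO of Sph embryos were separated by hand. No such separation by hand is described for ICM and TE, or for LB EPI and LB HYPO. The study sorted cells into lineages by clustering and known markers, so at these stages the labels may not be independent of the genes described here.

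In the mammalian blastocyst the inner cell mass gives rise to the epiblast, from which the body is formed, and the hypoblast, also called primitive endoderm, which lines the yolk sac. In the mouse, GATA6 is among the earliest regulators of the hypoblast fate, and GATA4, a related zinc finger factor, follows it. HNF4A is a nuclear receptor of visceral endoderm and liver, FOXA2 is a forkhead factor of visceral and definitive endoderm, and MIXL1 is a homeobox factor of the primitive streak and of cells that form mesoderm and endoderm.

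Each cell had between 1012604 and 5696373 counts on genes. The labels were checked with marker genes of each lineage, as TPM summed over the markers and averaged over the cells of an embryo. The 5 HYPO markers with a matched entry, PDGFRA and NID2 among them, summed to 832 to 2899 in LB HYPO and 9.6 to 83.9 in LB EPI, and to 1218 to 3305 in Sph HYPO and 11 to 25.3 in Sph EPI. The 8 EPI markers had a median sum of 1158 in LB EPI and 68.1 in LB HYPO, without overlap of embryos, and summed to 895 to 1210 in Sph EPI and 19.6 to 174 in Sph HYPO. In ICM both lists were present, with 159 to 614 for HYPO markers and 35.3 to 186 for EPI markers. Of 4 matched markers of other cells, PTPRC, a marker of immune cells, was at 0 in all 7 cell types. The others were detected. HBB exceeded TPM 1 in 10 of 24 ICM and 4 of 28 TE cells, and CD68 in 6 of 36 LB HYPO cells. ACTA2 did so in 6 of 25 LB EPI and 11 of 48 Sph EPI cells. The source of these transcripts was not tested. A pair of cells labelled TE stood apart. Their summed TPM over 8 TE markers was 175 in cell E6-ER2 and 1971 in cell AB6, against 17249 to 73941 in the other 26 TE cells. Results of the factors on TE are therefore given with and without them.

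The factors reached most cells at different points from M to Sph HYPO. GATA6 exceeded TPM 1 in 47 of 47 M cells, before the blastocyst formed. HNF4A first exceeded it in most cells in ICM, in 21 of 24. GATA4 did so in LB HYPO, in 20 of 36, and FOXA2 in Sph HYPO, in 9 of 12. The place of GATA4 rested on embryo AM and on the threshold. Without that embryo it was above TPM 1 in 8 of 22 LB HYPO cells, or 36.4%, and at TPM over 5 or 10 it was in most cells of no cell type. MIXL1 was seen in Sph HYPO alone among the cells sequenced, in 4 of 12. Over 50% of cells exceeded TPM 1 in 5 of the 7 cell types for GATA6, 3 for HNF4A, 2 for GATA4, 1 for FOXA2 and 0 for MIXL1. In EPI, none of these factors was detected in most cells at either stage. Cells are not replicates, so this order is a description of the cells, and the comparison of embryos follows it. Intervals on shares above 0 are exact Clopper-Pearson 95% intervals. For a share of 0 the limit given is instead 3 cells of the total. Both take cells as independent draws and leave out the spread between embryos. Where cells of the same embryo are alike, both are too narrow.

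**Figure D1:**
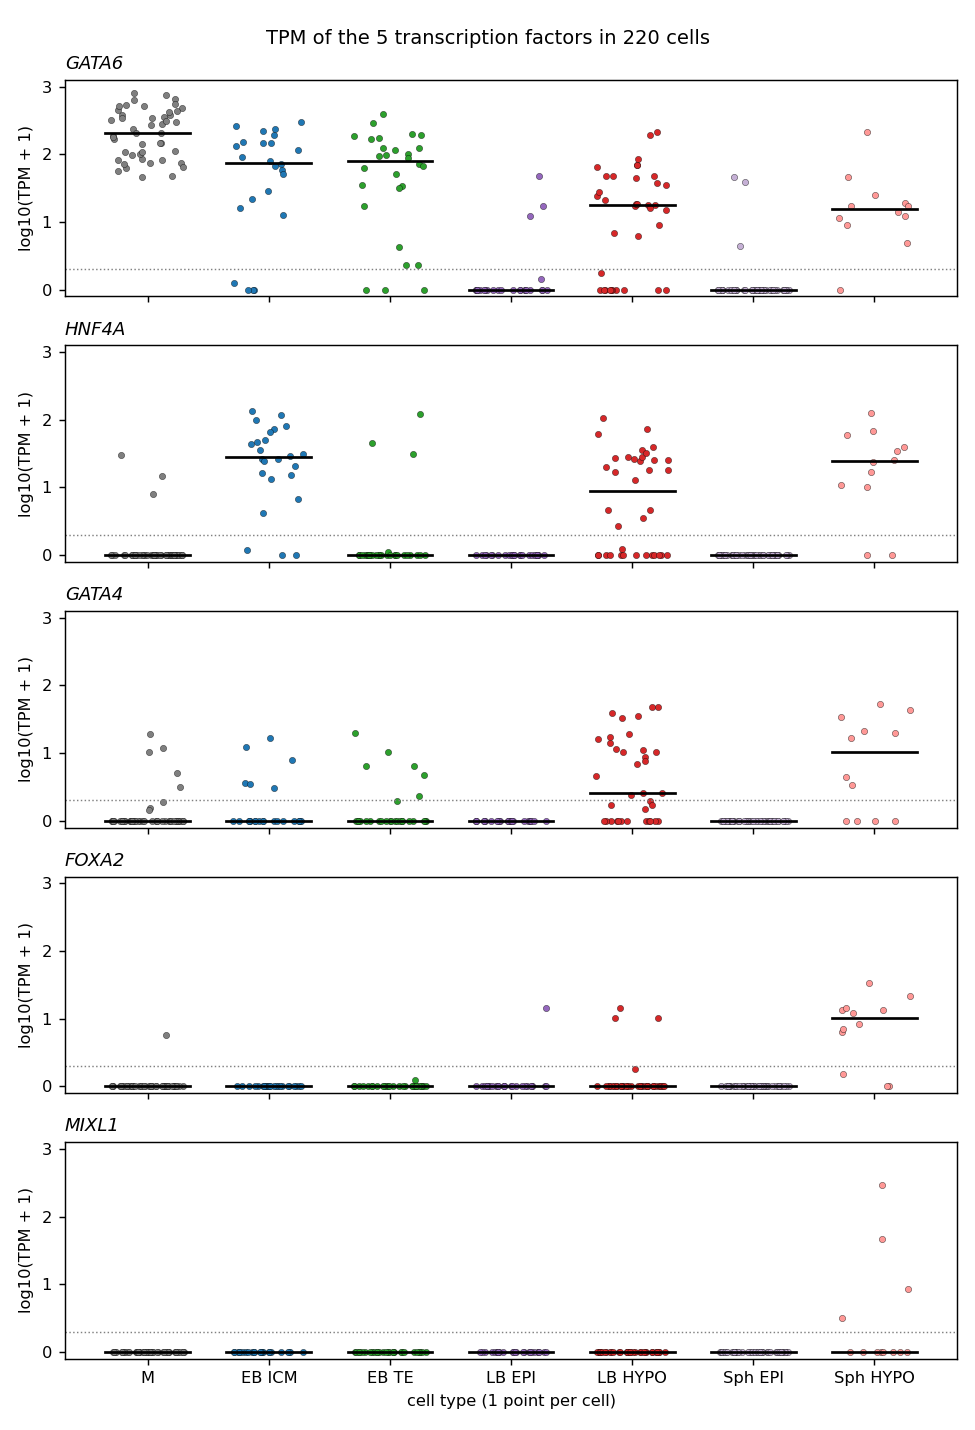
TPM of each factor in each of the 220 cells, as log10(TPM + 1), by cell type. Points are cells, bars are medians and the dotted line marks TPM 1. The median of GATA6 was highest in M, at a TPM of 208, and MIXL1 was above TPM 1 in 4 Sph HYPO cells alone.

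**Figure D2:**
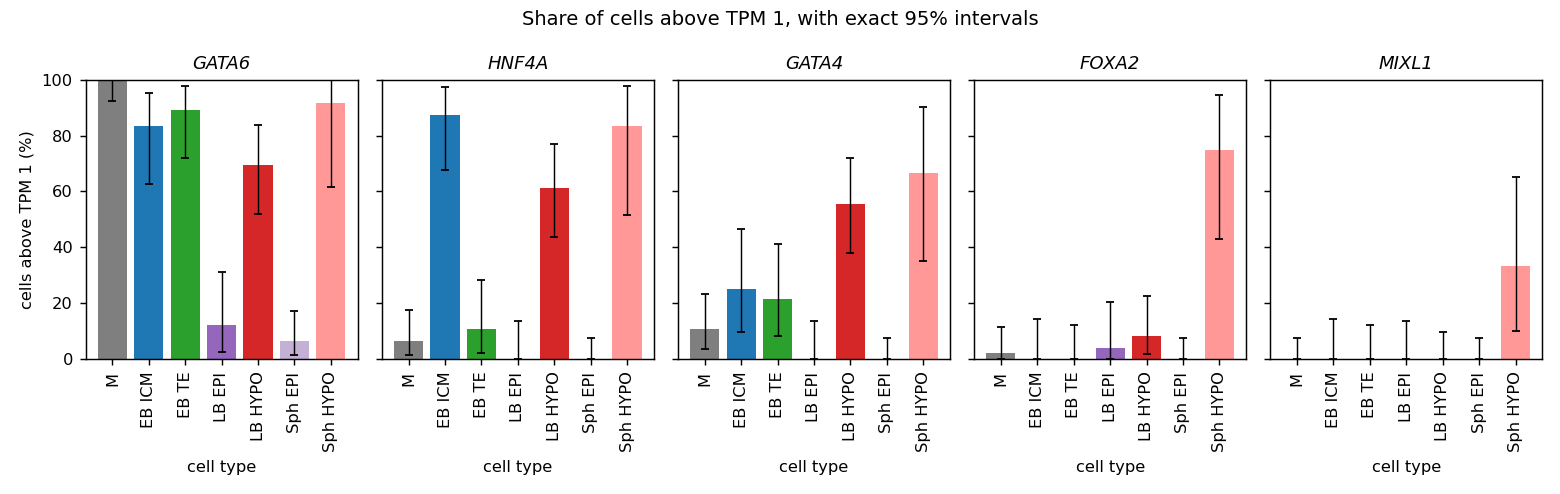
Share of cells above TPM 1 for each factor and cell type, in percent, with exact 95% intervals as lines. The share for HNF4A was 87.5% in ICM and 10.7% in TE, and that for FOXA2 was 75% in Sph HYPO and 8.33% in LB HYPO.

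GATA6 was the broadest of the 5. Its median TPM was 208 in M, with a range of 45.6 to 812, so that no morula cell was near 0. Medians were 74 in ICM and 78.9 in TE (78.8 without cells E6-ER2 and AB6), where it exceeded TPM 1 in 20 of 24 cells, or 83.3% (95% interval 62.6 to 95.3), and in 25 of 28, or 89.3% (95% interval 71.8 to 97.7). It was above TPM 1 in 25 of 36 LB HYPO cells, or 69.4% (95% interval 51.9 to 83.7), at a median of 16.7. In Sph HYPO the gene was above that level in 11 of 12 cells, or 91.7% (95% interval 61.5 to 99.8), at a median of 14.4. Without cells E6-ER2 and AB6 the share in TE was 23 of 26, or 88.5%. In EPI it was above TPM 1 in 3 of 25 LB cells, or 12% (95% interval 2.55 to 31.2), and in 3 of 48 Sph cells, or 6.25% (95% interval 1.31 to 17.2).

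Averaged over cells, the TPM of GATA6 per embryo ran from 156 to 471 in M, with a median of 263. It ran from 48.1 to 181 in ICM, with a median of 86.8, and from 23.6 to 191 in TE, with a median of 106. Without cells E6-ER2 and AB6 the TE range was the same and its median 97.5. In LB HYPO the values were 0 in embryo AL, 14.9 in AO, 26.9 in AM, 94.3 in AN and 123 in AP. Embryo AL was a single cell. In Sph HYPO embryo C stood at 113 while E and F stood at 14.6 and 15. LB EPI embryos had 0, 1.63, 2.22 and 5.91, and Sph EPI had 6.09 in embryo C and 0 in the other 3. From the highest mean to the lowest, the order was M, TE, ICM, LB HYPO, Sph HYPO, LB EPI and Sph EPI. Neighbours in this order overlapped in TPM per embryo, except Sph HYPO and LB EPI.

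The GATA6-positive EPI cells did not carry the other factors. All 6 had HNF4A, GATA4, FOXA2 and MIXL1 at 0. Their GATA6 reached 11.1, 15.9 and 47.3 TPM in LB, in 3 different embryos, and 3.47, 37.2 and 44.7 TPM in Sph, all in embryo C. They exceeded TPM 1 for 4 to 6 of the 8 EPI markers in LB and 4 to 7 in Sph, against 4 to 8 in EPI cells with no factor at both stages. Of the 5 HYPO markers they exceeded TPM 1 for 0 to 3 in LB and 0 to 1 in Sph, and EPI cells with no factor did so for 0 to 3 and 0 to 2. PDGFRA, a receptor on that list, was at 0 in all 6. It was rare in EPI as a whole, above TPM 1 in 4 of 25 LB cells and 1 of 48 Sph cells.

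HNF4A was detected in most ICM cells and in few M or TE cells. Of 24 ICM cells 21 were above TPM 1, which is 87.5% (95% interval 67.6 to 97.3), at a median TPM of 26.8. The share was 3 of 47 cells in M, or 6.38% (95% interval 1.34 to 17.5), and 3 of 28 in TE, or 10.7% (95% interval 2.27 to 28.2). The positive TE cells had 30, 44.9 and 121 TPM. The first of these was AB6 and the second E6-ER2, and without both the share in TE was 1 of 26, or 3.85%. HNF4A was above TPM 1 in 22 of 36 LB HYPO cells, or 61.1% (95% interval 43.5 to 76.9), and in 10 of 12 Sph HYPO cells, or 83.3% (95% interval 51.6 to 97.9). It had no count in EPI. The 0 of 25 cells in LB allow a share of up to 12%, and the 0 of 48 in Sph up to 6.25%.

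Per embryo, the TPM of HNF4A ran from 2.87 to 117 in ICM, with a median of 33.3. The highest ICM value was embryo AD, a single cell. The range was 0 to 3.6 in M and 0 to 44.9 in TE, with medians of 0. The highest TE value was the single cell E6-ER2, and without both doubted cells the highest was 30.2. LB HYPO embryos had 8.61 in AN, 10.6 in AO, 15.5 in AP, 20.2 in AM and 105 in AL. The 3 Sph HYPO embryos had 0 in E, 33 in F and 70.2 in C. All 5 LB HYPO embryos lay above the LB EPI embryos, which were at 0, while Sph HYPO embryo E was at 0, as all Sph EPI embryos were. The order of the means was ICM, Sph HYPO, LB HYPO, TE and M, each overlapping its neighbour, with both EPI groups at 0.

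GATA4 was found in a minority of cells in the early embryo, and in most cells in both HYPO groups. The share above TPM 1 was 10.6% in M (5 of 47, 95% interval 3.55 to 23.1), 25% in ICM (6 of 24, 95% interval 9.77 to 46.7) and 21.4% in TE (6 of 28, 95% interval 8.3 to 41). Without cells E6-ER2 and AB6 that of TE was 5 of 26, or 19.2%. In the positive cells of these groups its median was 9.54, 4.76 and 5.44 TPM, and in those of LB HYPO and Sph HYPO it was 10.4 and 19.6 TPM. In LB HYPO it was above TPM 1 in 20 of 36 cells, or 55.6% (95% interval 38.1 to 72.1), and in Sph HYPO in 8 of 12, or 66.7% (95% interval 34.9 to 90.1). In EPI no cell had a count, with the same limits of 12% and 6.25% as for HNF4A. The median depth of LB HYPO cells with GATA4 above TPM 1 was 1976634 counts, and that of the other LB HYPO cells was 1442044.

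The TPM of GATA4 per embryo was 0 to 2.28 in M and 0 to 6.96 in ICM. The highest ICM value was embryo AI, a single cell. In TE the range was 0 to 18.5, where the highest value was the single cell E6-ER2. Without it and AB6 the range in TE was 0 to 5.52. LB HYPO embryos held a narrow range, with 4.43 in AN, 7.43 in AP, 7.89 in AL, 9.07 in AO and 10.8 in AM. Sph HYPO embryos had 0 in E, 10.2 in C and 20.8 in F. The order of the means was Sph HYPO, LB HYPO, TE, ICM and M, and neighbours overlapped at each step. Within LB HYPO the share of positive cells was 12 of 14 in embryo AM and 5 of 16 in embryo AO, at 10.8 and 9.07 TPM per embryo.

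FOXA2 was nearly silent before the spherical stage. It was above TPM 1 in 1 of 47 M cells, 0 of 24 in ICM (a count of 0 allows up to 12.5%) and 0 of 28 in TE (up to 10.7%). In LB it was above TPM 1 in 1 of 25 EPI cells, at 13.4 TPM, and in 3 of 36 HYPO cells, or 8.33% (95% interval 1.75 to 22.5), at 9.26, 9.41 and 13.3 TPM. In Sph HYPO the share was 9 of 12, or 75% (95% interval 42.8 to 94.5), with 5.36 to 32.6 TPM in the positive cells, and in Sph EPI it was 0 of 48, which allows up to 6.25%. The 3 Sph HYPO embryos were close to each other, at 9.65, 10.4 and 11.8 TPM. LB HYPO embryos had 0 in AL, AO and AP, 1.68 in AM and 3.09 in AN, so the embryos of the HYPO groups did not overlap. Embryo E, which held no HNF4A or GATA4, held FOXA2 at 20.3 TPM in 1 of its 2 cells and at 0.536 TPM in the other.

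MIXL1 was detected in 4 cells of the series, all in Sph HYPO, or 33.3% of that group (95% interval 9.92 to 65.1). It passed the filter on low genes through these 4 cells alone, as FOXA2 did mostly through the 9 Sph HYPO cells among its 14, so that passing it says nothing about the other cell types. The cells had 2.17, 7.62, 46 and 288 TPM, in embryos F, C, F and C. Of its 293 counts, 239 came from 1 cell of embryo C. Sph HYPO embryos averaged 148 TPM in C, 6.02 in F and 0 in E. It had no count in the other 208 cells, and the limit on the share was 12.5% in ICM, 12% in LB EPI, 10.7% in TE, 8.33% in LB HYPO, 6.38% in M and 6.25% in Sph EPI.

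The MIXL1-positive cells carried most of the other factors at the same time, and so did the other Sph HYPO cells. Of the 4, all had HNF4A and FOXA2 above TPM 1, and 3 had GATA6 and 3 GATA4. Of the other 8, the number was 8 for GATA6, 6 for HNF4A, 5 for GATA4 and 5 for FOXA2. EOMES, a T-box factor of the streak and of endoderm, was above TPM 1 in 4 of 4 of them and in 6 of the other 8 Sph HYPO cells. GSC, a homeobox gene of the organiser, was above TPM 1 in 4 of 4 and in 1 of the other 8. T, the T-box factor brachyury, was at 0 in all 12. GSC was not particular to these cells. It also exceeded TPM 1 in 19 of 47 M and 15 of 24 ICM cells, where MIXL1 had no count. Among the other matched mesendoderm genes, MESP1, EVX1 and CHRD exceeded TPM 1 in 0 of 12 Sph HYPO cells, WNT3 in 1 and LEF1 in 2. Median depth was 2099828 counts in the MIXL1-positive cells and 1878878 in the rest, with overlapping ranges.

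**Figure D3:**
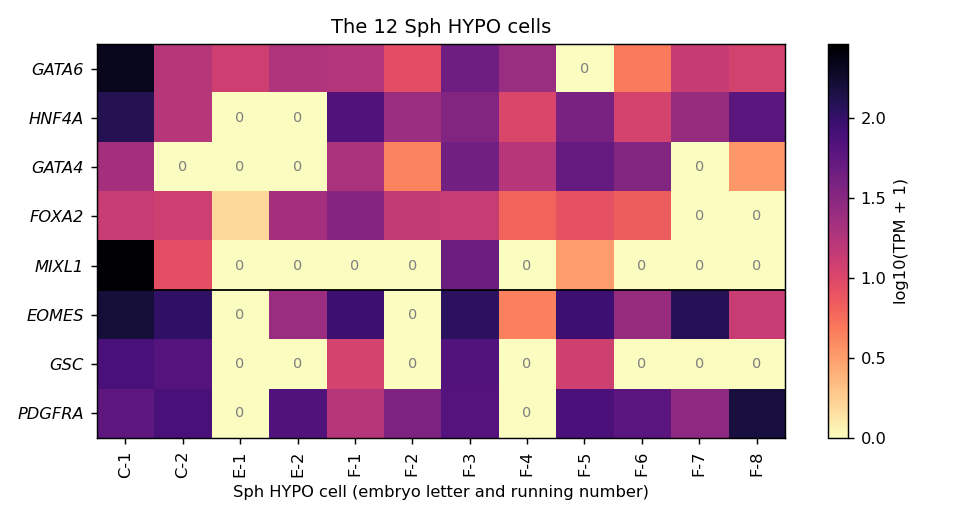
TPM in the 12 Sph HYPO cells, as log10(TPM + 1), with cells in columns by embryo and genes in rows. A grey 0 marks no count, and genes under the line are markers outside the 5 factors. MIXL1 was at 0 in 8 cells, and both cells of embryo E lacked HNF4A and GATA4.

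Embryo E set the lower end of Sph HYPO. Its 2 cells exceeded TPM 1 for 3 and 2 of the 5 HYPO markers, against 3 to 5 in the cells of embryos C and F, and PDGFRA was at 0 in one and 68 TPM in the other. Their 1349492 and 1729751 counts lay within the range of all cells. Without embryo E, the shares in Sph HYPO were 10 of 10 for HNF4A, 9 of 10 for GATA6, 8 of 10 for GATA4 and FOXA2, and 4 of 10 for MIXL1.

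Several factors were often above TPM 1 in the same cell. The number of cells with 2 or more was 8 of 47 in M, 18 of 24 in ICM, 8 of 28 in TE, 27 of 36 in LB HYPO and 11 of 12 in Sph HYPO, and 0 of 25 and 0 of 48 in EPI. Both doubted TE cells were among the 8, and without them the number in TE was 6 of 26. In ICM the leading combination was GATA6 with HNF4A and nothing else, in 12 cells, and a further 5 had GATA4 as well. All 6 ICM cells with GATA4 had HNF4A. LB HYPO was more mixed. There, 8 cells had GATA6 and GATA4 alone, 6 had GATA6 and HNF4A alone, 6 had these 3 together and 4 had HNF4A and GATA4 without GATA6. In Sph HYPO, 4 cells had GATA6, HNF4A, GATA4 and FOXA2, 2 cells had all 5 factors, and 1 had a single factor.

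A few HYPO cells had none of the 5 above TPM 1. There were 3 such cells in LB HYPO, all from embryo AO, and 0 in Sph HYPO. Of the 3, 1 had no count of any factor, and the others had 1 or 2 counts of a factor. In LB, 2 of them had 4 of 5 HYPO markers above TPM 1, with PDGFRA at 72.6 and 110 TPM, and the other had 1. Depth was 1354259, 1546115 and 2967414 counts. In ICM every cell had at least 1 factor above TPM 1.

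**Figure D4:**
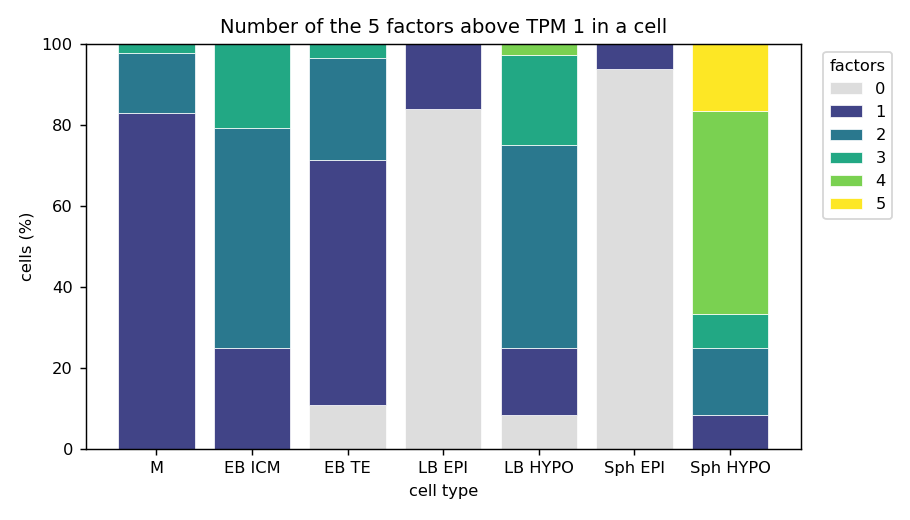
Share of cells, in percent, by the number of the 5 factors above TPM 1 in the same cell, for each cell type. Colours run from 0 factors (grey) to 5. In EPI, 21 of 25 LB cells and 45 of 48 Sph cells had 0, while 2 Sph HYPO cells had 5.

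To compare embryos, the counts of all cells that shared an embryo and a cell type were added up. This gave 41 sums, on which 14721 genes were compared by the quasi-likelihood test of edgeR. A gene was called at a Benjamini-Hochberg adjusted p under 0.05. Log2 fold changes are given for the group named first minus the second, with their standard error (SE). For a gene without any count in one of the groups, an "at least" fold is set against 3 counts in that whole group. It bounds read counting only and leaves out the spread between cells and embryos. Reads here carry no molecular identifiers. A single positive cell can give more than 3 counts, as with the 17 of FOXA2 in LB EPI. In a sum, fewer cells with the gene and less RNA per cell cannot be told apart, which is why shares of cells stand above.

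**Figure D5:**
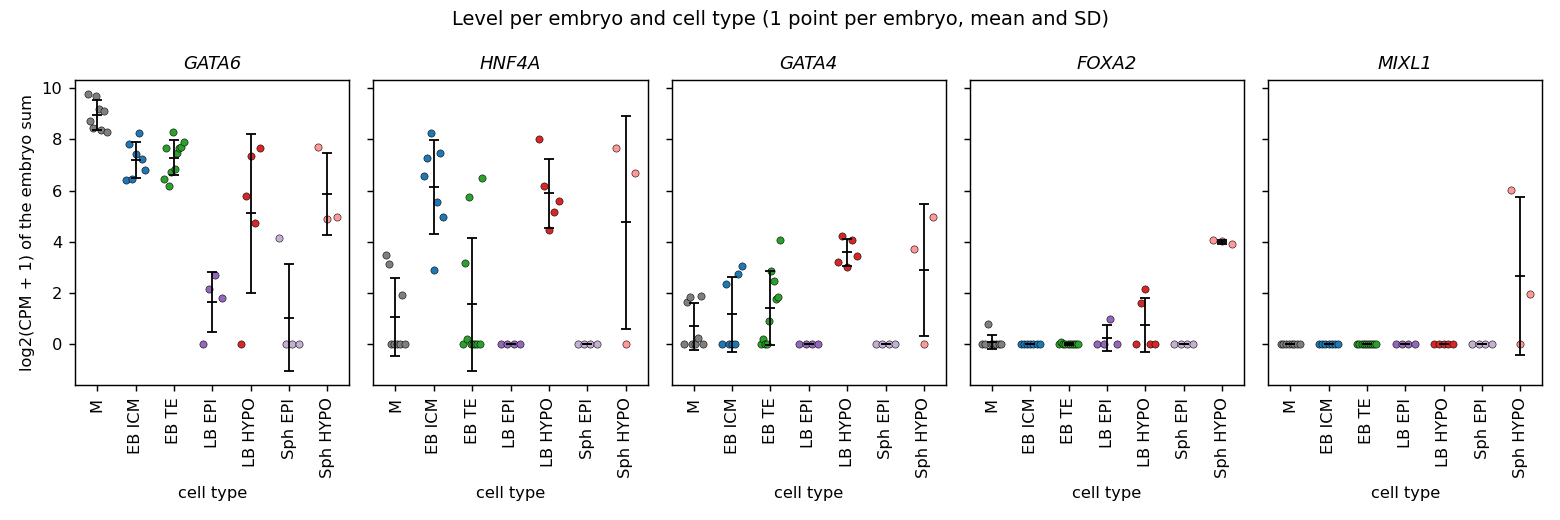
Level of each factor per embryo and cell type, as log2(CPM + 1) of the embryo sum, where CPM is the count scaled to a fixed total per sum. Points are embryos, and black marks are the mean and SD. GATA6 in M lay above ICM in all embryos, and the 3 Sph HYPO embryos were close together for FOXA2.

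From M to ICM, GATA6 fell and HNF4A rose. Of all genes tested, 2.45% were called, and of the 5 factors these 2. GATA6 was lower in ICM by a log2 fold change of -1.65 (SE 0.34, adjusted p = 0.00981 from edgeR). The CPM of the 7 ICM and 8 M embryos did not overlap, with 305 the highest in ICM and 308 the lowest in M, while their TPM did overlap. The sample titles carry 8 SLX numbers. What these mark is not stated in the titles, and they are called pools here. Within the first 4 of the 8 pools the change was -1.93 (adjusted p = 0.228 from edgeR). Within the last 4 it was -1.50 (adjusted p = 0.2), and neither passed. HNF4A was higher in ICM by 5.55 (SE 1.46, adjusted p = 0.0488 from edgeR). In the pools it was 5.62 (adjusted p = 0.211) and 5.72 (adjusted p = 0.172). The HNF4A call lay at the threshold. Of 15 fits without 1 embryo it passed only in those without M embryo ER or ICM embryo AE, and in the other 13 its adjusted p was 0.0522 to 0.0801. GATA4 differed by 1.41 (SE 1.81, adjusted p = 0.777) and FOXA2, with 15 counts in M and 0 in ICM, had an adjusted p of 0.21.

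Some matrix and lipid transport genes also rose. Of 24 tested genes of secreted, matrix and uptake proteins, 5 were higher in ICM and 1 lower, at a median log2 fold change of 2.36 against -0.02 over all genes. FN1, fibronectin, rose by 5.12 (SE 0.92, adjusted p = 0.00428 from edgeR), and for APOC3, an apolipoprotein, ICM exceeded M at least 1719-fold (adjusted p = 0.00567). NID1, a basement membrane nidogen, had 156 counts in ICM and 1 in M (adjusted p = 0.0439), and APOE had 272 and 1 (adjusted p = 0.0481). DAB2, an endocytic adaptor, fell by 5.35 on the log2 scale (SE 0.70, adjusted p = 0.000226). None of the 7 other hypoblast regulators tested and none of the 6 mesendoderm genes was called, with medians of 1.88 and 0.17.

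Between ICM and TE none of the 5 factors was called, where 0.754% of all genes were, and 2783 genes had an unadjusted p under 0.05. HNF4A was the largest difference, at 2.97 (SE 1.48, adjusted p = 0.292 from edgeR). Without cells E6-ER2 and AB6 it was 4.34 (SE 1.63, adjusted p = 0.124). In the 7 embryos with cells of both lineages HNF4A was higher in ICM in 7 of 7, and 5 of their TE sums were at 0. Neither doubted cell came from these 7 embryos. With the embryo as a replicate block, which pairs these sums, HNF4A was called (adjusted p = 0.0263 from edgeR), and it was the only 1 of the factors, while 0.605% of all genes were called. GATA6 differed by -0.07 (SE 0.42, adjusted p = 1), or by -0.04 without those cells, and GATA4 by -0.41 (SE 1.74, adjusted p = 1), with a sign that turned to 0.38 without those cells. The ICM samples here are those compared with M.

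Of the 24 secreted and matrix genes, 2 were higher in ICM and 1 lower, at a median of 1.40 against 0.00 over all genes. FN1 was higher by 6.38 (SE 1.15, adjusted p = 0.00763 from edgeR) and APOC3 by 8.72 (SE 1.67, adjusted p = 0.0128), whereas DAB2 was lower by a log2 fold change of -6.93 (SE 1.12, adjusted p = 0.0036). Without cells E6-ER2 and AB6 they remained called, at 6.35, 8.66 and -7.10. None of the 6 mesendoderm genes was called.

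GATA6 and HNF4A were both lower in LB EPI than in ICM. Between LB EPI and ICM, 2.91% of all genes were called, and of the 5 factors these 2. GATA6 differed by -5.75 (SE 1.01, adjusted p = 0.00526 from edgeR), with 0 to 5.91 TPM per embryo in LB EPI and 48.1 to 181 in ICM, without overlap. It did not pass within the first 4 pools, at -4.02 (adjusted p = 0.214), and did within the last 4 (adjusted p = 0.000885). HNF4A was at least 1935-fold lower in LB EPI (adjusted p = 0.00156), with 0 counts against 5986, and it passed in both sets of pools (adjusted p = 0.0193 and 0.0143). GATA4, at 0 against 102 counts, was at least 33-fold lower but did not pass (adjusted p = 0.171), and FOXA2, at 17 counts against 0, had an adjusted p of 0.198. Among the lists, OTX2, a homeobox regulator, fell by 2.58 on the log2 scale (SE 0.43, adjusted p = 0.00362), FN1 by 2.80 (SE 0.69, adjusted p = 0.0414) and CTSV, a cathepsin, by 2.03 (SE 0.49, adjusted p = 0.0342). These were 1 of 7 regulators and 2 of 24 secreted and matrix genes, and 0 of 6 mesendoderm genes were called.

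Towards LB HYPO, none of the factors was called against ICM, where 2.1% of all genes were and 3314 had an unadjusted p under 0.05. GATA6 differed by -0.87 (SE 0.88, adjusted p = 0.708 from edgeR), HNF4A by -0.42 (SE 0.83, adjusted p = 0.937) and GATA4 by 2.23 (SE 1.73, adjusted p = 0.57). FOXA2 in LB HYPO exceeded ICM at least 17.5-fold, at 65 counts against 0 (adjusted p = 0.148). For each of the 4, the embryos of both groups overlapped, and both comparisons share the ICM samples. Several matrix genes rose. Of 24 secreted and matrix genes 7 were higher in LB HYPO and 0 lower, with a median of 3.28 against 0.00 over all genes. LAMA1, a laminin chain, was at least 386-fold higher (adjusted p = 0.0121) and SPARC at least 190-fold (adjusted p = 0.0412). COL4A2, a basement membrane collagen, rose by 8.32 (SE 1.15, adjusted p = 0.000491) and NID1 by 6.45 (SE 1.21, adjusted p = 0.00725). OTX2 fell by 4.04 on the log2 scale (SE 0.42, adjusted p = 3.02e-05), the only called regulator of 7, and CHRD, which encodes the secreted BMP antagonist chordin, fell by 8.60 (SE 1.85, adjusted p = 0.0189), the only called mesendoderm gene of 6.

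HNF4A was higher in HYPO than in EPI in the late blastocyst. It had 3346 counts in LB HYPO and 0 in LB EPI, a difference of at least 873-fold (adjusted p = 0.00541 from edgeR), and it was the only factor called, where 1.92% of all genes were called. It passed within the first 4 pools (adjusted p = 0.0453) but not within the last 4 (adjusted p = 0.0894), where GATA6 was called instead (adjusted p = 0.023). By limma on mean log2(TPM + 1) HNF4A did not pass (adjusted p = 0.114) and GATA4 did (adjusted p = 0.0197). HNF4A was higher in HYPO in 3 of 3 embryos with cells of both lineages, but with the embryo as a replicate block it did not pass (adjusted p = 0.137 from edgeR), nor did any other factor, and 0.136% of all genes were called. GATA4 was at least 234-fold higher in HYPO, with 898 counts against 0 and no overlap of embryos, and missed the threshold (adjusted p = 0.0552). GATA6 differed by 4.99 (SE 1.65, adjusted p = 0.171). Its embryos overlapped, with HYPO embryo AL at 0. FOXA2 differed by 2.13 (SE 2.49, adjusted p = 0.758).

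Of 24 secreted and matrix genes, 4 were higher in LB HYPO and 0 lower, at a median of 3.90 against 0.00 over all genes. LAMA1 was at least 374-fold higher (adjusted p = 0.026 from edgeR). FN1 was higher by 6.25 (SE 0.56, adjusted p = 0.000196), MTTP, a lipid transfer protein, by 6.0 (SE 1.33, adjusted p = 0.036) and LAMC1 by 5.13 (SE 1.0, adjusted p = 0.0193). None of the 7 regulators or the 6 mesendoderm genes was called, with medians of 1.19 and -3.56.

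In the spherical embryo none of the 5 factors was called between HYPO and EPI, where 1.13% of all genes were and 2236 had an unadjusted p under 0.05. There were 3 HYPO embryos. HNF4A had 2420 counts in HYPO and 0 in EPI, at least 3640-fold higher (adjusted p = 0.0743 from edgeR). FOXA2 had 336 and 0 (adjusted p = 0.0818), with no overlap of embryos. GATA4 had 543 and 0, at least 817-fold (adjusted p = 0.161), and MIXL1 had 293 and 0, at least 441-fold (adjusted p = 0.161). HYPO embryo E was at 0 for HNF4A, GATA4 and MIXL1, as all EPI embryos were. Without it HNF4A was called (adjusted p = 0.0122). GATA6 differed by 4.40 (SE 2.36, adjusted p = 0.394). Without EPI embryo C, which held all GATA6 counts of Sph EPI, it was called (adjusted p = 0.0395).

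Among the genes beside them, 7 of 24 secreted and matrix genes were higher in Sph HYPO and 0 lower, at a median of 4.80 against -0.57 over all genes. APOA2, an apolipoprotein, had 28367 counts in HYPO and 1 in EPI (adjusted p = 1.1e-05 from edgeR), and NID2 had 4491 and 3 (adjusted p = 0.00594). APOC3 was higher by 12.27 (SE 1.24, adjusted p = 0.00138) and APOM by 10.36 (SE 1.59, adjusted p = 0.0122). None of the 7 regulators or of the 6 mesendoderm genes was called, with medians of -1.45 and -0.81. The sum of TE markers was also higher in Sph HYPO. Over 8 TE markers the summed TPM per embryo was 17433 to 43743 in Sph HYPO and 2882 to 9225 in Sph EPI, and at the LB stage it was 1811 to 2835 in HYPO and 3111 to 5912 in EPI. Most of the sum in Sph HYPO was keratin, with a mean of 30028 TPM for KRT8 and 6034 for KRT18, against 6064 and 1995 in Sph EPI. GATA3 exceeded TPM 1 in 9 of 12 Sph HYPO cells and 4 of 48 Sph EPI cells, and CLDN4 in 12 of 12 and 9 of 48. The other 4 markers were not more frequent in Sph HYPO. TFAP2A exceeded TPM 1 in 2 of 12 cells against 18 of 48 and ANXA6 in 9 of 12 against 48 of 48, GATA2 did so in 0 cells of either group, and CDX2 was at 0. The part of these markers in the results on the factors was not tested.

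The difference between HYPO and EPI was compared between the stages by an interaction term, in which 0 of the 5 factors and 0.0408% of all genes were called, with 1597 genes at an unadjusted p under 0.05. For GATA6 the difference changed by -0.53 (SE 2.70, adjusted p = 1 from edgeR) and for FOXA2 the adjusted p was 0.353. HNF4A, GATA4 and MIXL1 have no count in EPI, so no value could be had for them. None of the 7 regulators, 6 mesendoderm or 24 secreted and matrix genes was called.

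Within the HYPO lineage, from LB to Sph, none of the 5 factors was called, where 0.163% of all genes were and 1402 had an unadjusted p under 0.05. GATA6 differed by 0.04 (SE 1.32, adjusted p = 1 from edgeR), HNF4A by 0.26 (SE 1.32, adjusted p = 1) and GATA4 by 0.37 (SE 1.80, adjusted p = 1). With these errors, differences of several units on the log2 scale could not have been seen. FOXA2 was higher in Sph HYPO by 3.79 (SE 2.28, adjusted p = 0.53), and its embryos did not overlap. MIXL1 was at least 251-fold higher, with 293 counts against 0 (adjusted p = 0.373). The HYPO markers were present at both stages, as given above. By the sex that the study inferred, LB HYPO cells were mostly female and Sph HYPO cells all male. Stage and sex therefore cannot be told apart between these HYPO groups.

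LHX1, a LIM homeobox factor of the organiser and of visceral endoderm, was called between these HYPO groups, with 1539 counts in Sph and 1 in LB (adjusted p = 0.0162 from edgeR), and was the only called gene of 7 regulators. It exceeded TPM 1 in 9 of 12 Sph HYPO cells, 0 of 36 LB HYPO cells and 4 of 48 Sph EPI cells. EOMES, the only called gene of 6 mesendoderm genes, was higher by 10.72 (SE 1.82, adjusted p = 0.0335), and was above TPM 1 in 10 of 12 Sph HYPO cells, 1 of 36 LB HYPO cells and 13 of 48 Sph EPI cells. None of the 24 secreted and matrix genes was called. The medians were 0.23 for regulators, 3.58 for mesendoderm genes and 0.32 for secreted and matrix genes, against -0.03 over all genes.

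Within EPI, from LB to Sph, none of the factors was called, where 0.156% of all genes were and 1999 had an unadjusted p under 0.05. GATA6 differed by 0.45 (SE 2.47, adjusted p = 1 from edgeR) and FOXA2, with 17 counts in LB and 0 in Sph, had an adjusted p of 0.368. HNF4A, GATA4 and MIXL1 were at 0 in all 8 EPI sums. No gene of the 3 lists was called.

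Among genes with a symbol, those closest to each factor were found by the Pearson correlation of log2(CPM + 1) over the 41 sums. The sums share cell types, embryos and depth. Entries without a symbol were passed over, so a closer one may exist. For GATA6 they were PHYHD1 (r = 0.853), SLC6A8 (r = 0.843) and UBASH3B (r = 0.819). For HNF4A they were SLC7A9, an amino acid transporter subunit (r = 0.840), PECAM1, an adhesion molecule (r = 0.758), and ABRACL (r = 0.756). GATA4 was followed less closely, by SLC26A7 (r = 0.687), the apolipoprotein APOA1 (r = 0.653) and HABP2 (r = 0.635). FOXA2, with a count in 8 of the 41 sums, was nearest to DNTT (r = 0.912), FMOD (r = 0.905) and WNT1 (r = 0.900). MIXL1 had a count in 2 sums, so its nearest genes HOXA10 (r = 0.975), DOK6 (r = 0.959) and MXRA8 (r = 0.945) rest on those sums. Among the factors themselves the highest r was 0.658, between FOXA2 and MIXL1, followed by 0.551 between HNF4A and GATA4. GATA6 correlated with HNF4A and GATA4 at 0.158 and 0.161.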

How the data were processed

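The authors trimmed Smart-seq2 reads, aligned them to the pig genome with HISAT2 2.1.0 and used htseq-count with the Ensembl annotation. Cells of low read number, cells rich in mitochondrial reads and a few t-SNE outliers were taken out by them. They deposited raw counts per gene and cell, not normalized, and TPM values the authors derived from them. Both were used as deposited. Gene names matched 11437 of 22840 entries.

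Cells were grouped by label, and the embryo was read from the letters of the cell identifier, which is uncertain for cells E6-ER2 and AP-ER2. Counts were summed per embryo and cell type, a gene was kept if 3 or more cells exceeded TPM 1, and sums were compared with edgeR 4.0.16 (R 4.3.3) after TMM normalization. SE is the log2 fold change divided by the square root of F. p-values measure the spread between embryo sums, in which differences between embryos and between cells are mixed. Sums held 1 to 19 cells. Those of a single cell were 2 of 7 in ICM, 3 of 10 in TE and 1 of 5 in LB HYPO. Counts per cell were 1012604 to 5696373. Tables, intervals and plots used pandas 2.3.3, scipy 1.17.1 and matplotlib 3.10.9.

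The factors and gene lists were chosen with earlier results of these data known. Of the lists, 11 of 18 regulators, 8 of 11 mesendoderm genes and 28 of 35 secreted, matrix and uptake genes matched an entry, and the others were not analysed here. A result on regulators between ICM and TE is not reported here. Named were the 5 factors, the 3 most correlated genes with a symbol for each, and up to 4 called list genes per direction with the largest fold changes. PDGFRA, EOMES, GSC and T were singled out in single cells after their values were seen.

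ICM and TE, or EPI and HYPO, came from the same embryos, which pairs them. The median correlation of their deviations from group means was 0.0565 for ICM with TE (7 embryos), 0.0248 in LB (3 embryos) and 0.0672 in Sph (3 embryos). Alternatives were DESeq2 1.42.0, no TMM, other filters, limma 3.58.1 on mean log2(TPM + 1), at least 2 cells per sum, certain embryos only, the morula cell without an embryo as its own, first or last 4 pools, all 7 cell types in one model, the embryo as a block, each embryo left out, other TPM thresholds, cells thinned to 1000000 counts, Spearman correlation and means of the 7 cell types. Leaving out cells E6-ER2 and AB6, Sph HYPO embryo E for shares, and each embryo of the cell type of onset for shares, was added after seeing the data.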

Additional observations from a re-analysis of the deposited data

Results flagged for a closer look

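In 18 groups of 4 to 10 embryos with some variation, a single embryo stood far from the rest in 4. In all 4 the other embryos were at 0.00, so that any count would have set it apart, and the rate of about 1 in 20 that chance gives does not apply to them. GATA6 in Sph EPI was at a log2(CPM + 1) of 4.16 in embryo C, from 3 of its 14 cells, and at 0.00 in the other 3 embryos. FOXA2 was at 0.81 in M embryo T, from 15 counts of 1 cell, with the other 7 at 0.00. It was at 1.0 in LB EPI embryo AP, from 17 counts of 1 cell of 8, with the other 3 at 0.00. In TE embryo AB it was at 0.08, from a single count, with the other 9 at 0.00.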

How the results depend on the processing

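Of 379 log2 fold changes recomputed without 1 embryo, 349 kept their direction and side of the threshold, as did 301 of 346 under the other alternatives, and 265 of 279 shares stayed within their interval. Causes of the changes below were not tested. The number of the 5 factors called between ICM and M (2) was 1 with sums of at least 2 cells and 0 within either set of pools or with all cell types in one model. For ICM against TE (0) it was 1 with the embryo as a replicate block. For LB HYPO against EPI (1) it was 3 by DESeq2, 2 with filterByExpr, and 0 with all cell types or the block, and it was 1 but of another factor by limma (GATA4) and in the last 4 pools (GATA6). For Sph HYPO against EPI (0) it was 4 by DESeq2, 2 by limma, and 1 with no filter or in the first 4 pools. It was 1 of 2 for LB EPI against ICM in the first 4 pools, 1 for Sph against LB HYPO by DESeq2, and 1 for the interaction by limma. The block changed no other call. Without 1 embryo these numbers were 1 to 2 for ICM against M, 0 to 1 for Sph HYPO against EPI, and as given for the rest (0, 1 or 2).

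Signs turned only for differences that were not called. For ICM against TE, GATA6 was 0.10 with 2 or more cells per sum and with the block, 0.31 in the last 4 pools and -0.30 to 0.07 without 1 embryo. GATA4, at -0.41 in the main fit, was 1.12 under another of the alternatives. It was 0.38 with certain embryos or without cells E6-ER2 and AB6, 0.13 in the last pools and -0.98 to 0.38 without 1 embryo. HNF4A in LB HYPO against ICM ran from -1.44 to 0.06. For Sph against LB HYPO, GATA6 was -0.28 with 2 or more cells, -2.37 in the last pools, -0.01 with all cell types and -1.54 to 0.52. HNF4A was -0.47 in the last pools and -0.73 to 1.31, and GATA4 -0.23 by limma and -0.80 to 0.85. For Sph against LB EPI, GATA6 was -0.24 by limma, -1.93 in the first pools and -8.73 to 1.01. Its interaction was 0.85 by limma, 2.63 in the first pools, 2.98 with the block and -2.09 to 8.34.

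Cell types with most cells positive fell from 2 to 0 for GATA4 at TPM over 5 or 10, and to 1 with embryos weighted equally. They fell from 3 to 2 for HNF4A at TPM over 5 or 10 and from 1 to 0 for FOXA2 at TPM over 10, and rose from 0 to 1 for MIXL1 in the first 4 pools. By Spearman, 1 of the 3 nearest genes of GATA6, FOXA2 and MIXL1 and 0 of GATA4 stayed among the nearest 3, and by the 7 means 0 of these 4 factors. These ranks also counted entries without a symbol, which the choice of the nearest 3 had left out. The sets ranked are therefore not alike. Genes called ran, with embryos kept, from 38 to 1205 for ICM against M (361), 9 to 865 for ICM against TE (111), 20 to 1369 for LB HYPO against EPI (283), 82 to 1446 for Sph HYPO against EPI (167), 71 to 1097 for LB HYPO against ICM (309), 123 to 1370 for LB EPI against ICM (428), 17 to 336 for Sph against LB HYPO (24), 7 to 828 for Sph against LB EPI (23) and 0 to 540 for the interaction (6). Without 1 embryo they ran from 250 to 419, 58 (ICM AG) to 184 (TE E6-ER), 138 (EPI AQ) to 294, 78 (EPI E) to 583 (HYPO F), 206 to 312, 239 (EPI AP) to 428, 17 to 110 (Sph HYPO F), 11 (LB EPI AP or AQ) to 41 (LB EPI AN) and 0 (Sph EPI C or D) to 165 (Sph HYPO F), in the same order.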
